A study of Mus musculus with 48 samples.

Results

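Aromatic amino acid catabolism in liver was followed through a list of 9 named genes, of which Tat, Hpd, Hgd, Fah, Tdo2, Ido2, Kmo and Haao matched a symbol in the deposited tables. These 8 are the genes described here, out of 46517 mouse genes with a count. The 9th name, Gstz1-ps, matched no symbol and has no value here. The neighbouring enzyme gene Gstz1 was measured and is described with the other genes of the pathway. The rule names the genes by function and uses no measured value, but they were proposed with earlier results of these data known.

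The data come from mouse liver spheroids grown in the anterior chamber of the eye (ACE). Spheroids were made from hepatocyte-enriched liver cells, obtained by collagenase perfusion and a density step, in a medium that held dexamethasone, insulin, transferrin and selenium, and were transplanted (tx) onto the iris. The 5 groups were 5 explants taken 2 months post-tx, 3 naïve irises without a graft, 3 in situ livers, 3 preparations of hepatocyte-enriched cells, and in vitro spheroids (2 samples), whose days in culture the labels do not give. All 16 samples are labelled C57BL/6N and WT Albino, which is the only genotype in the labels. The study's own strain list names albino mice of a J substrain and does not name C57BL/6N. Both the animals' sex and their number per sample are not recorded in the labels. An explant holds the engrafted spheroid together with the iris around it, the hepatocyte-enriched preparations are not pure hepatocytes, and the spheroids also contain other liver cells.

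Tyrosine and tryptophan that are not needed for protein are broken down mainly in hepatocytes. Tyrosine loses its amino group through Tat, tyrosine aminotransferase, then passes Hpd, the dioxygenase that forms homogentisate, Hgd, the dioxygenase that opens its ring, the isomerase Gstz1, and Fah, which splits fumarylacetoacetate into fumarate and acetoacetate. Tryptophan is opened to N-formylkynurenine by Tdo2, the main enzyme of liver, or by the related Ido1 and Ido2, hydroxylated as kynurenine by Kmo, and carried by Haao towards quinolinate and NAD. Loss of Fah causes tyrosinemia, loss of Hgd causes alkaptonuria, and Tat and Tdo2 are long known as liver genes induced by glucocorticoids.

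The genes lie on 7 chromosomes of GRCm38, in which 1-based positions are given for the whole gene. Tat lies at chr8:109990437-109999803 on the plus strand, Hpd at chr5:123171807-123182727 on the minus strand, Hgd at chr16:37580153-37632020 on the plus strand and Fah at chr7:84585159-84606722 on the minus strand. Of the tryptophan genes, Tdo2 lies at chr3:81957090-81976202 and Ido2 at chr8:24531894-24576333, both on the minus strand, Kmo at chr1:175620381-175662116 on the plus strand and Haao at chr17:83831356-83846790 on the minus strand. Their exons, over which reads were counted, are 1222 bases long in Haao and 4724 in Kmo, the shortest and the longest. None of the 8 shares exonic bases with another gene.

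The bases before the start sites of 5 of the genes are shown so that their regulatory sequence can be read beside the values. Starts were taken from RefSeq for 7 of the 8, Ido2 not among them, and each sequence is the 250 bases before that start in GRCm38.p6, read 5′ to 3′ on the strand of the gene. Capitals mark matches on either strand to motifs of promoters and of liver factors. These were TATAAA for the core promoter, CCAAT for the factor NF-Y, TTGCNNAA for the C/EBP family, GTTAAT as part of the site of HNF1, CAAAGTCCA for the nuclear receptor HNF4, and TGTTCT as part of the glucocorticoid response element. Tat is shown as the gene with the widest range among explants, Hpd, Hgd and Haao as genes that were lower in spheroids than in hepatocytes, and Tdo2 as one whose test did not pass there.
Tat, chr8:109990186-109990435, plus strand: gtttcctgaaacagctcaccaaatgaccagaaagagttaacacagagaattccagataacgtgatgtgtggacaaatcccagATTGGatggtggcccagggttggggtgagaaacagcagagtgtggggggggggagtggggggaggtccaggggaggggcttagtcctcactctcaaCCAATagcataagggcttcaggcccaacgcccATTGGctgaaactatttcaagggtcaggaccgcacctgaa
Hpd, chr5:123182724-123182973, minus strand: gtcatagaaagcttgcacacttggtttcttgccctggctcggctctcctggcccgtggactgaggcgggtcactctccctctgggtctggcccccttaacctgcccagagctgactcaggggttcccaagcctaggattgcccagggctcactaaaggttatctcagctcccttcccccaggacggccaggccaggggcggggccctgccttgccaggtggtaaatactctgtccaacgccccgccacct
Hgd, chr16:37579903-37580152, plus strand: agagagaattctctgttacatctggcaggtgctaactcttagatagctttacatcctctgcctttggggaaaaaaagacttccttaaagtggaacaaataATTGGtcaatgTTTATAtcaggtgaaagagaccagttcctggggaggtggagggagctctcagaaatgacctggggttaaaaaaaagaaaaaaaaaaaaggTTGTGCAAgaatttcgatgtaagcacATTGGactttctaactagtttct
Tdo2, chr3:81975729-81975978, minus strand: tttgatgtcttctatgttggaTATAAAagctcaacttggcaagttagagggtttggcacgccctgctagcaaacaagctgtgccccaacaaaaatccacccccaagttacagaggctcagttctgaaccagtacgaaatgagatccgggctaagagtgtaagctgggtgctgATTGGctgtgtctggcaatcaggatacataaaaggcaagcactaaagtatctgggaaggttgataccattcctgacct
Haao, chr17:83846791-83847040, minus strand: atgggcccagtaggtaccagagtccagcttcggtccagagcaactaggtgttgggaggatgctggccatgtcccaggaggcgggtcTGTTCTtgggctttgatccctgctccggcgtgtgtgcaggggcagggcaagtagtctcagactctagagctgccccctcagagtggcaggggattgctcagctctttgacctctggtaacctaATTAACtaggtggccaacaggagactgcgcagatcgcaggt

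Tat carried 3 CCAAT matches, at 168, 72 and 40 bases before its start, and no other match. Hgd carried 2 CCAAT matches, 1 TATAAA match and 1 C/EBP match, the last beginning 49 bases before the start. Tdo2 held TATAAA at 229 bases and CCAAT at 78 bases before its start, and Haao the letters of HNF1 at 41 bases and TGTTCT at 164 bases. In Hpd, Fah and Kmo none of these letters stood in the window, and no matches overlapped each other. The RefSeq starts can differ from those of the annotation used for counting. The windows of Tdo2, Fah and Kmo lie inside the gene positions given above, that of Kmo at chr1:175631943-175632192. Bases before the outer start of these genes were not searched. Among all 32851 windows of the same length, 12.4% held TATAAA, 33.8% CCAAT, 9.56% the C/EBP letters, 6.43% GTTAAT, 16.1% TGTTCT and 0.384% CAAAGTCCA, so that the short motifs are common. A match is a description of the letters and says nothing of binding.

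Each sample was sequenced by Smart-seq3 as 3 technical libraries, which were summed. The total per sample was 5449589 to 6789648 counts in explants, 4596550 to 4881817 in irises and 2718518 to 3871404 in the 8 samples of liver, hepatocytes and spheroids. Levels are given as TPM (counts scaled by exon length and library depth). For explants the corrected TPM is what remained after the iris share was subtracted and the rest scaled up, with iris shares of 82%, 68%, 81%, 72% and 59% in explants 1, 2, 4, 5 and 6. These shares are estimates, solved from the authors' values before and after correction. Another estimate, the median ratio over 36 genes specific to iris, gave 82.4%, 71.6%, 82.9%, 76.7% and 47.4% in the same order. The corrected level of an explant depends on its share. All 10 hepatocyte markers, such as Alb and Hnf4a, stood at 1 TPM or more in every sample, irises included. Their sum was 12935 to 16069 TPM in liver, hepatocytes and spheroids, 5719 to 7753 TPM in explants before correction and 1677 to 2032 TPM in naïve irises. The study describes its replicates as biological, but neither it nor the labels say which animal or culture each sample came from, so the p-values measure the spread between these samples. In these bulk samples, fewer hepatocytes and less RNA per hepatocyte cannot be told apart.

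**Figure D1:**
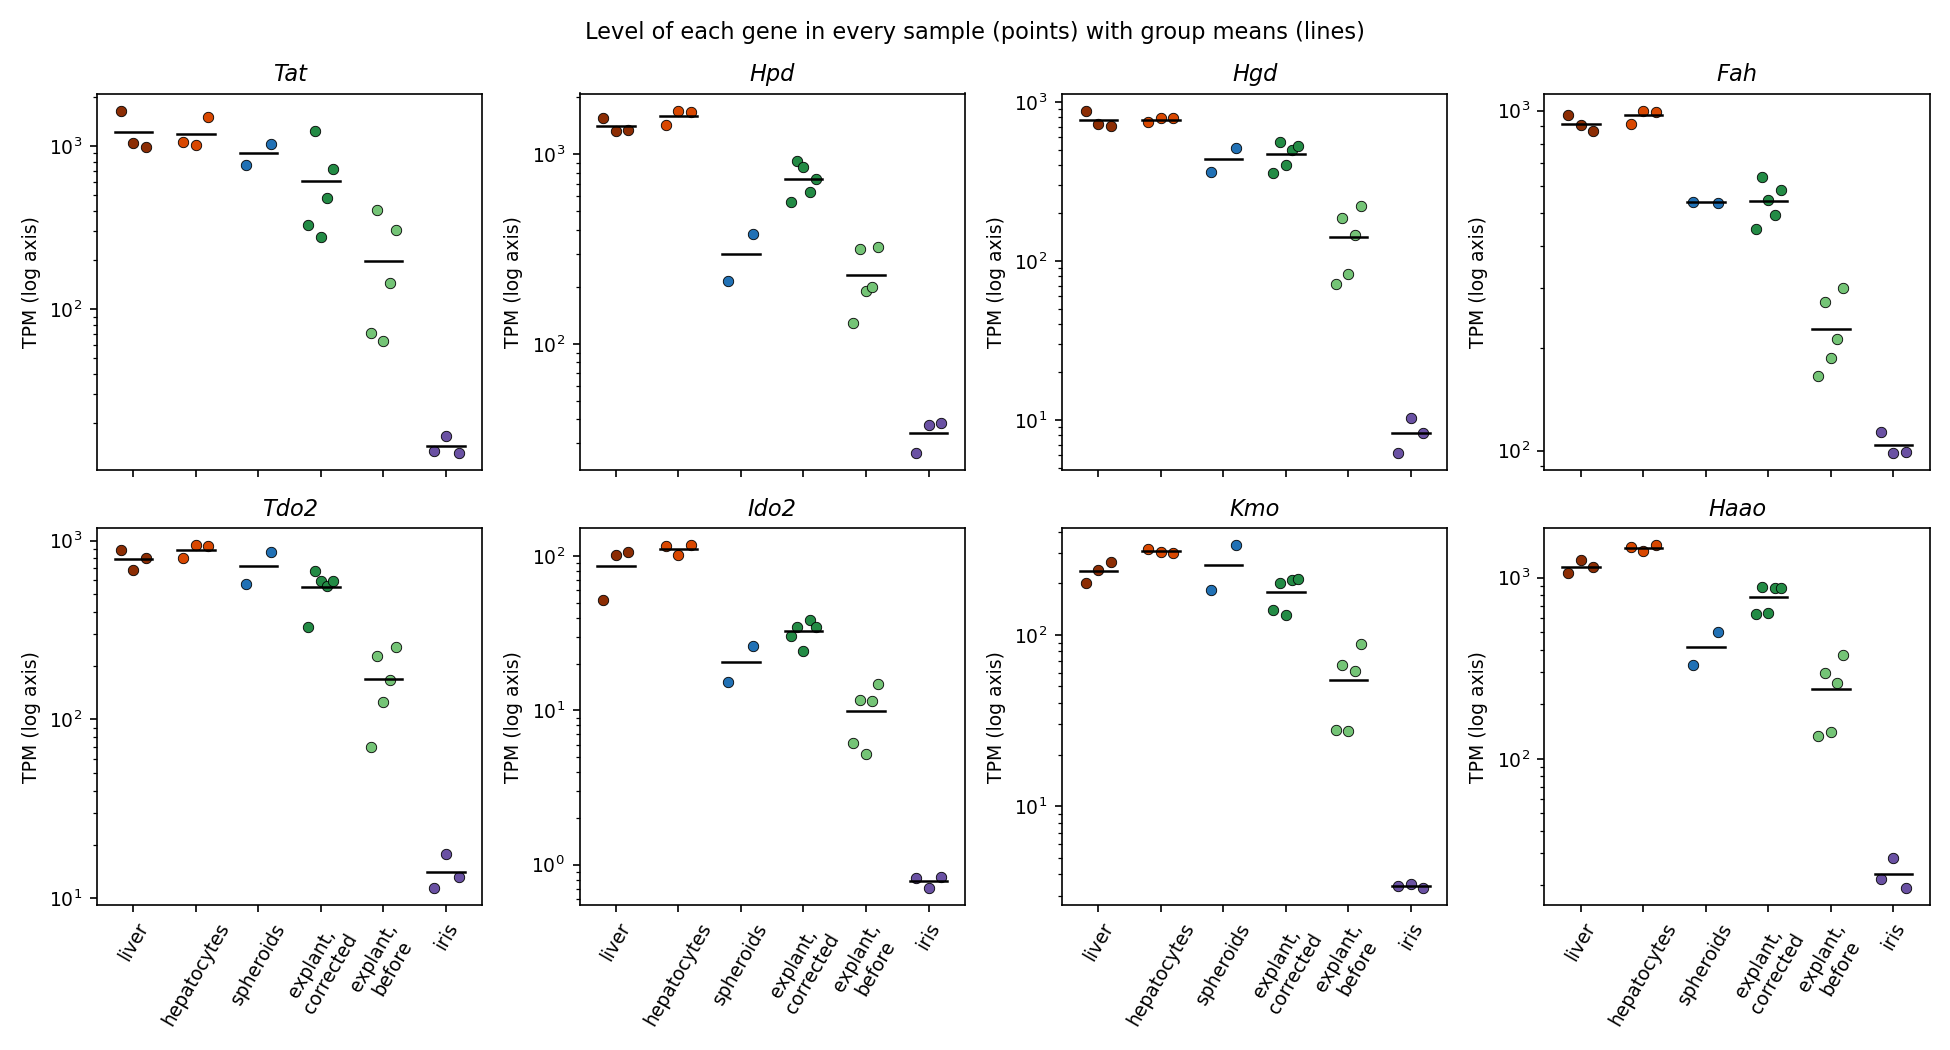
TPM of each of the 8 genes (log axis) in every sample, with livers, hepatocytes, spheroids, explants after and before correction, and naïve irises along the horizontal axis. Points are samples and lines are group means. Hpd, Ido2 and Haao stood lower in both spheroid samples than in any liver or hepatocyte sample, and irises held the lowest values of all 8 genes.

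Tat, which opens tyrosine breakdown, was measured at 1645, 1038 and 990 TPM in the 3 livers and at 1052, 1010 and 1496 TPM in the 3 hepatocyte preparations. Spheroids held 769 and 1032 TPM, and naïve irises 13.5, 16.8 and 13.1 TPM. Corrected explants gave 329, 1234, 276, 480 and 726 TPM in explants 1, 2, 4, 5 and 6. Explant 2 thus lay within the range of the livers while the other 4 explants lay below every liver. By mean the order was liver (1224 ± 365 TPM, SD, n = 3), hepatocytes (1186 ± 269, n = 3), spheroids (900 ± 186, n = 2), corrected explants (609 ± 391, n = 5) and irises (14.5 ± 2.04, n = 3). Neighbours in this order overlapped in TPM as far down as the explants, and only the irises stood apart.

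Hpd, the dioxygenase after Tat, stood at 1560, 1332 and 1351 TPM in livers and at 1436, 1704 and 1673 TPM in hepatocytes. Both spheroid samples were far lower, at 215 and 380 TPM. Corrected explants held 560, 921, 855, 630 and 739 TPM, above both spheroid samples and below every liver and hepatocyte sample, while irises held 26.5, 37.1 and 38.2 TPM. Hpd was the gene of the 8 with the highest mean in livers (1415 ± 127 TPM) and in hepatocytes (1604 ± 146 TPM), and was among the lower ones in spheroids, with only Ido2 and Kmo below it by mean.

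Hgd, the homogentisate dioxygenase, was at 881, 727 and 705 TPM in livers, 747, 789 and 787 TPM in hepatocytes, and 364 and 509 TPM in spheroids. Corrected explants held 358, 561, 403, 497 and 528 TPM. The spheroids and the explants overlapped each other, and both lay below all livers and hepatocytes. Irises held 6.20, 10.3 and 8.35 TPM.

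Fah, at the end of the tyrosine route, stood at 972, 905 and 870 TPM in livers and 914, 1000 and 992 TPM in hepatocytes. The spheroids were at 540 and 535 TPM and the corrected explants at 448, 636, 546, 492 and 583 TPM, and these values overlapped each other and none of the livers. Fah differed from the other 7 genes in naïve irises, where it reached 114, 98.3 and 99.2 TPM, which is 11.3% of the liver mean. The other 7 stood in irises at 0.910% to 2.40% of liver.

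Tdo2, the tryptophan dioxygenase of liver, was at 885, 680 and 801 TPM in livers, 798, 939 and 930 TPM in hepatocytes and 571 and 861 TPM in spheroids. Corrected explants gave 328, 673, 595, 555 and 598 TPM, with explant 1 the lowest. The spheroids overlapped livers, hepatocytes and explants, whereas every explant lay below every liver, if only narrowly. Irises held 11.4, 17.7 and 13.1 TPM.

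Ido2, which acts on the same step as Tdo2, was the least abundant member in every group. It stood at 51.8, 102 and 106 TPM in livers, 117, 101 and 118 TPM in hepatocytes and 15.3 and 26.1 TPM in spheroids. Corrected explants held 30.5, 34.8, 24.2, 38.8 and 34.8 TPM, and overlapped the spheroids but no liver. The 3 irises held 4 to 5 counts of Ido2 each, near 0.789 TPM. Its relative Ido1 had 0 counts in every liver, hepatocyte and spheroid sample, which allows up to 3 counts in each, and at most 2 counts in an explant.

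Kmo, the kynurenine hydroxylase, was at 202, 239 and 268 TPM in livers and 318, 306 and 302 TPM in hepatocytes. Its 2 spheroid samples stood on either side of both groups, at 182 and 332 TPM. Corrected explants held 139, 202, 131, 209 and 211 TPM, where the upper 2 values lay within the range of the livers. Irises held 3.43, 3.53 and 3.34 TPM.

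Haao, the last enzyme of the list on the way to quinolinate, stood at 1055, 1255 and 1143 TPM in livers and was higher in all 3 hepatocyte samples, at 1472, 1406 and 1506 TPM. Both spheroid samples were below all of these, at 330 and 502 TPM. Corrected explants lay between, at 632, 882, 641, 879 and 874 TPM, with no overlap with either side. Irises held 21.6, 28.4 and 19.4 TPM.

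The question of whether the pathway is present in the graft was addressed by explants against naïve irises, in counts before correction. All 8 genes were higher in explants, where 6.47% of 16764 genes tested were called and 6.16% were called higher. Called here means that edgeR's quasi-likelihood test gave a p under 0.05 after Benjamini-Hochberg adjustment, with a log2 fold change beyond 1 in either direction. The median log2 fold change of the 8 genes was 3.72, against 0.01 for all genes tested, and no gene overlapped between groups, as held for 25.3% of all genes. Hgd rose the most (log2 fold change 4.22 ± 0.52 SE, 18.7-fold, adjusted p = 0.00109). Its CPM (counts scaled by library depth alone, without the TMM scaling of the fold change) were 5.53, 9.14 and 7.48 in irises. In explants they were 62.8, 169, 72.6, 130 and 208. Fah rose the least (1.25 ± 0.24, 2.38-fold, adjusted p = 0.0097), from the highest iris level of the 8 genes. Tat rose 15.1-fold (3.92 ± 0.77, adjusted p = 0.0114), and its call was lost without iris 1, 2 or 3, with adjusted p of 0.0614, 0.054 and 0.0628. Fah lost its call without iris 3 (adjusted p = 0.0554). The other 6 genes kept their calls whichever sample was left out. In the same comparison 10 of 10 hepatocyte markers (median 3.25) and 6 of 10 macrophage markers were called higher and 3 of 3 lens markers lower, and their part in the values of the 8 genes was not tested.

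The low values in irises were set beside other genes of liver. Of 1139 genes at 200 TPM or more in liver, the lowest 10% stood in irises at 1.27% of liver or less, and the lowest of all at 0.472%. The 8 genes had a median of 1.62%, and the hepatocyte markers one of 5.495%. Whether the reads of these genes in irises came from the iris was not tested.

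Cell isolation was addressed by hepatocytes against in situ livers, where 0 of the 8 genes were called by edgeR, against 2.72% of 12236 genes. At an unadjusted p under 0.05, 4 of the 8 passed (Hpd, Tdo2, Kmo and Haao), as did 25.3% of all genes, and DESeq2 and limma-voom also called 0. All 8 fold changes were above 0, with a median of 0.32 against 0.01 for all genes. Kmo (0.52 ± 0.14, adjusted p = 0.0749) and Haao (0.48 ± 0.13, adjusted p = 0.073) were the members whose groups did not overlap, which held for 31.3% of all genes. Tat differed least (0.11 ± 0.23, adjusted p = 0.802), and its sign turned without hepatocyte preparation 3 (-0.11) or without liver 3 (-0.02). Other cell types fell in the same comparison, with 4 of 5 stellate cell markers and 2 of 9 macrophage markers called lower, and the part of this in the values of the 8 genes was not tested.

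Spheroids in vitro were compared with the hepatocyte preparations from which such spheroids are made, in counts. Of the 8 genes, 5 were called lower and 0 higher, where 17.2% of 12247 genes were called and 9.11% called lower. Ido2 fell by 2.74 on the log2 scale (SE 0.30, 6.69-fold lower, adjusted p = 0.00104). Its CPM, which lack the TMM scaling of the fold change, were 169, 147 and 175 in hepatocytes and 21.2 and 36.3 in spheroids. Hpd was 6.64-fold lower (-2.73 ± 0.35, adjusted p = 0.00196) and Haao 4.34-fold lower (-2.12 ± 0.29, adjusted p = 0.00222). Fah (-1.18 ± 0.21, adjusted p = 0.00611) and Hgd (-1.14 ± 0.26, adjusted p = 0.0169) were called with smaller changes. Tat, Tdo2 and Kmo did not pass, with log2 fold changes of -0.72 ± 0.31, -0.62 ± 0.29 and -0.56 ± 0.31 and adjusted p of 0.123, 0.154 and 0.224. On the tyrosine route Hpd, Hgd and Fah were thus called lower, while Gstz1, between Hgd and Fah, passed the p but not the limit on fold change (-0.87 ± 0.27, adjusted p = 0.0472), and on the tryptophan route Ido2 and Haao were called.

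The median over the 8 genes was -1.16, against 0.01 for all genes tested. In CPM the groups did not overlap in 6 of the 8, as in 58.5% of all genes. Hgd lost its call without hepatocyte preparation 3 (adjusted p = 0.052) or spheroid sample 1 (log2 fold change -0.82). Without spheroid sample 2, which held more of 7 of the 8 genes than sample 1, Tdo2 (-1.09, adjusted p = 0.0174) and Kmo (-1.21, adjusted p = 0.0076) were called lower as well and the count rose to 7. With either spheroid sample left out, the one that remains is assumed to vary like the hepatocyte preparations, which alone give the spread. Fah differed 1.01-fold between both spheroid samples and the other 7 genes between 1.34-fold and 1.83-fold. With library size alone in place of TMM scaling, Hgd (-0.90) and Fah (-0.92) fell short of the fold change limit and 3 genes were called. That scaling moved the median of all genes from 0.01 to 0.27, and the share of calls that were higher from 47.2% to 65.5%.

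Against in situ livers, spheroids were called lower in 3 of the 8 genes, where 19.2% of 12959 genes were called and 11% called lower. These were Hpd (-2.35 ± 0.30, 5.08-fold lower, adjusted p = 0.00206), Ido2 (-2.18 ± 0.41, 4.54-fold lower, adjusted p = 0.00765) and Haao (-1.57 ± 0.26, 2.98-fold lower, adjusted p = 0.00507). Hgd (-0.92 ± 0.23, adjusted p = 0.0213) and Fah (-0.89 ± 0.17, adjusted p = 0.00873) passed the p but not the limit on fold change. Without spheroid sample 2 both were called as well (-1.34 and -1.02) and the count rose to 5, in a fit where the livers alone give the spread. For Kmo the estimate was 0.02 ± 0.30, for Tdo2 -0.24 ± 0.25 and for Tat -0.54 ± 0.27, none past the threshold. The median of the 8 was -0.91, against 0.01 for all genes, and 5 of the 8 did not overlap, as did 59.5% of all genes. Both comparisons use the same spheroid samples.

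The 10 hepatocyte markers held 60.3% to 118% of the liver level in spheroids, with a median of 102% and 0 called in either comparison. The 8 genes held 21.02% (Hpd) to 109% (Kmo), with a median of 57.7%. Against livers the fold changes of the markers were split, with 5 below 0 and 5 above, and against hepatocytes all 10 were below 0. Removal of duplicates limits the counts of abundant genes such as Alb, and its part here was not tested. No test of the difference between these lists was made. In spheroids 2 of 5 Kupffer cell markers and 4 of 10 macrophage markers were called higher than in hepatocytes, and the Kupffer cell markers summed to 469 to 511 TPM in spheroids, 101 to 200 TPM in hepatocytes and 204 to 371 TPM in livers. Against livers, 4 of 5 liver sinusoidal endothelial and 4 of 5 stellate cell markers were called lower in spheroids, with 2 of 10 macrophage markers lower and 1 higher. Their part in the values of the 8 genes was not tested.

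**Figure D2:**
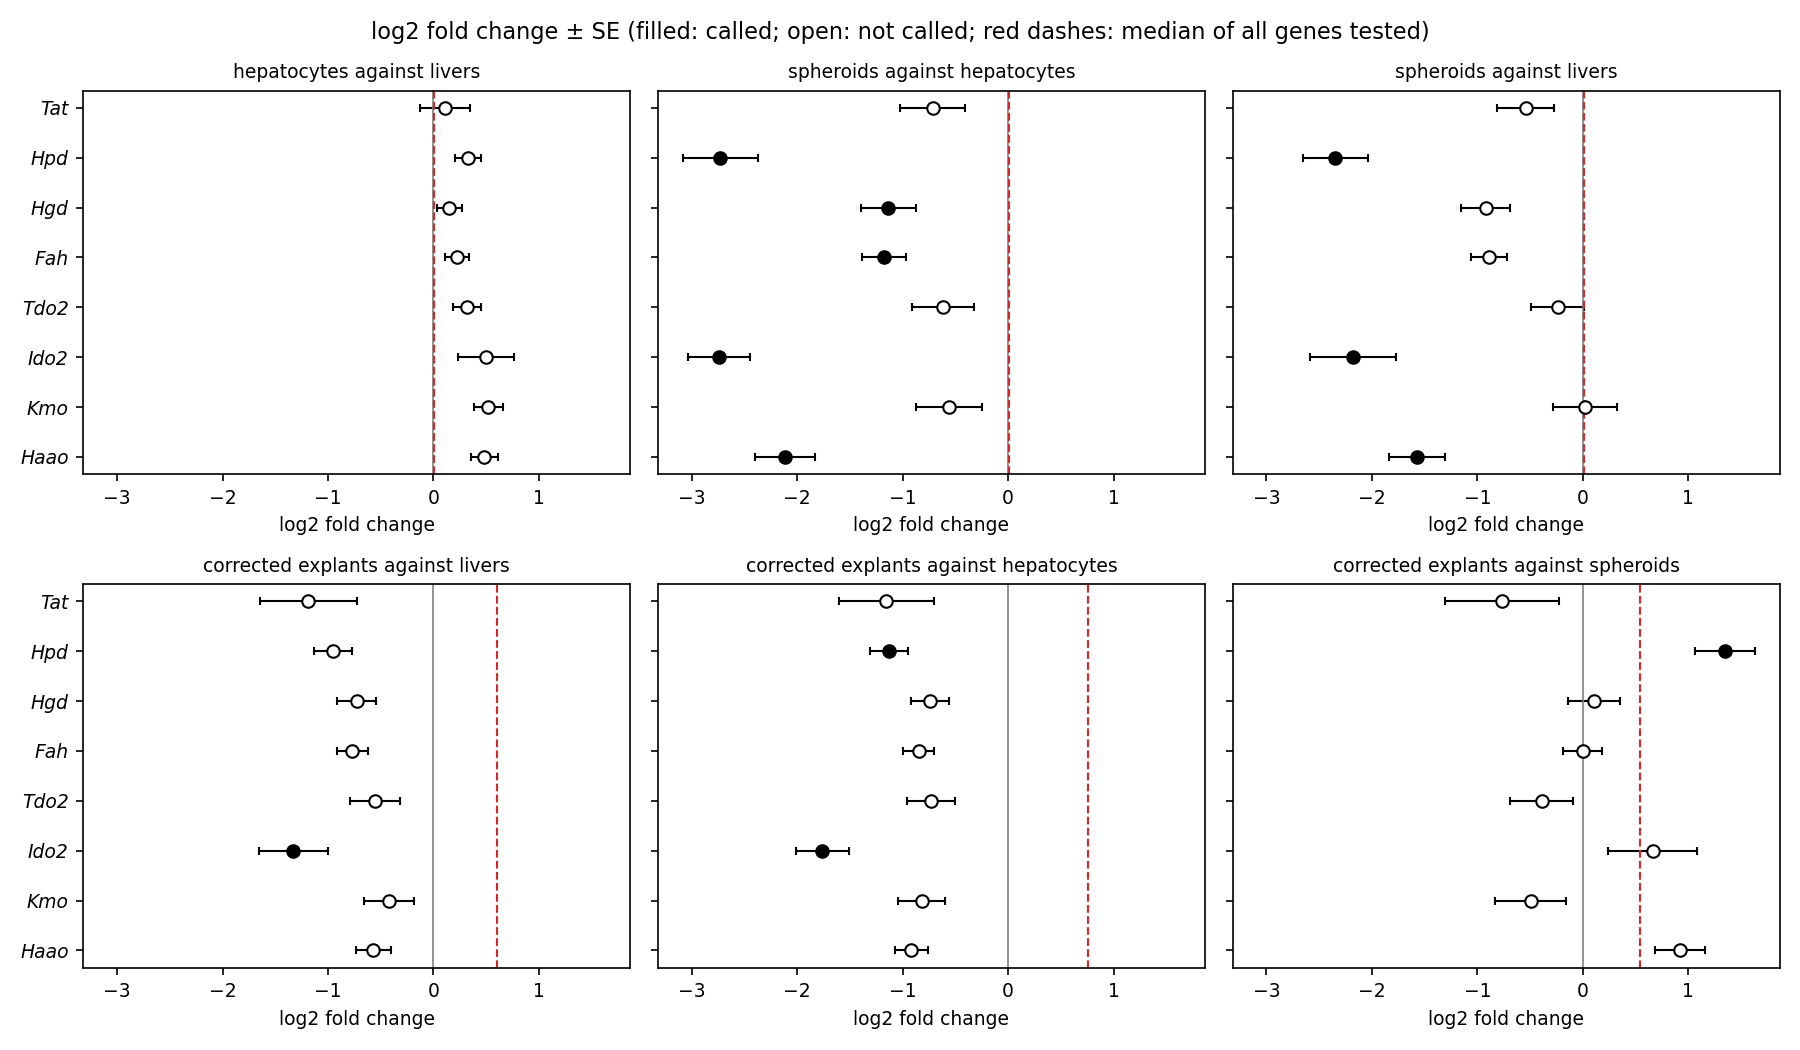
log2 fold change of each of the 8 genes with its SE (bars) in 6 comparisons, with called genes filled, other genes open and the median of all genes tested as a red dashed line. In spheroids Hpd, Ido2 and Haao stood farthest below 0 against hepatocytes and livers, and in corrected explants all 8 genes lay below 0 against both.

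For explants after iris correction, the comparison with in situ livers was made with limma's test on log2(TPM + 1), so that fold changes are on that scale and understate those of low genes. Only Ido2 was called, as lower (-1.33 ± 0.33, 2.51-fold, adjusted p = 0.0258), where 14.8% of 21002 genes were called and 3.01% called lower. All 8 fold changes were below 0, with a median of -0.75, while the median of all genes tested was 0.61. Hpd (-0.95 ± 0.18, adjusted p = 0.00904), Fah (-0.77 ± 0.15, adjusted p = 0.00994), Hgd (-0.73 ± 0.19, adjusted p = 0.0296) and Haao (-0.57 ± 0.17, adjusted p = 0.0472) passed the p but not the limit on fold change. Tat (-1.19 ± 0.46, adjusted p = 0.116), Tdo2 (-0.55 ± 0.24, adjusted p = 0.15) and Kmo (-0.43 ± 0.24, adjusted p = 0.258) did not pass. Groups did not overlap in 6 of the 8, Tat and Kmo being the exceptions, as in 28.5% of all genes.

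The call of Ido2 rested on livers 2 and 3, since without either the adjusted p was 0.144 and 0.149, and liver 1 held the lowest Ido2 of the 3 livers. Without explant 2, both Tat (-1.496, adjusted p = 0.0263) and Hpd (-1.04, adjusted p = 0.009) were called lower too, and without explant 4 Hpd was (-1.01, adjusted p = 0.0109). Before the iris share is subtracted, all 8 genes were called lower than in livers, as were 8.12% of all genes, and an explant then also counts the iris RNA. With the corrected values as deposited, in which explant 4 was computed in another way than the other 4, none of the 8 was called.

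Against hepatocytes, Ido2 (-1.76 ± 0.25, 3.39-fold lower, adjusted p = 0.00164) and Hpd (-1.13 ± 0.18, 2.19-fold lower, adjusted p = 0.00265) were called lower in corrected explants, where 19% of 20726 genes were called and 3.28% called lower. The median of the 8 was -0.88 and that of all genes 0.75. Without explant 2, Tat was called as well (-1.47, adjusted p = 0.0191). Haao (-0.92 ± 0.16), Fah (-0.85 ± 0.15), Kmo (-0.82 ± 0.22) and Hgd (-0.74 ± 0.18) had adjusted p of 0.00397, 0.00404, 0.0308 and 0.0173 with changes under the limit. Tdo2 (-0.73 ± 0.23, adjusted p = 0.0534) and Tat (-1.16 ± 0.45, adjusted p = 0.103) did not pass, and only Tat overlapped between the groups, against 31.5% of all genes that did not overlap.

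Against spheroids in vitro, only Hpd was called, as higher in corrected explants (1.35 ± 0.28, 2.55-fold, adjusted p = 0.0301), where 5.95% of 21217 genes were called and 5% called higher. Its call was lost without explant 2, 4, 5 or 6 or without either spheroid sample, with adjusted p of 0.0603, 0.053, 0.0566, 0.0527, 0.303 and 0.082 in that order, and it stood without explant 1. With a spheroid sample left out, the explants alone give the spread. Haao was 1.90-fold higher without passing (0.92 ± 0.24, adjusted p = 0.0642), and its groups did not overlap, as did those of Hpd and of 26.6% of all genes. Ido2 (0.66 ± 0.42), Hgd (0.10 ± 0.24) and Fah (-0.002 ± 0.19) did not pass, nor did Tat (-0.77 ± 0.54), Kmo (-0.49 ± 0.34) and Tdo2 (-0.39 ± 0.30). The median of the 8 was 0.05, against 0.54 for all genes, with 4 genes on each side of 0. The corrected explants are shared by all 3 of these comparisons, and in spheroids only 2 samples stand behind the last one.

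Relative to the liver mean, corrected explants held 37.7% (Ido2) to 75.5% (Kmo) of the 8 genes, with a median of 59.97%. The 10 hepatocyte markers, corrected the same way, held 53.1% to 177% with a median of 136%, and 0 were called against livers. Their fold changes were split, with 4 below 0 (Hnf4a, Cps1, Asgr1 and Apob, at 53.1% to 78.6%) and 6 above. Removal of duplicates limits the counts of abundant genes such as Alb, and its part here was not tested. No test of the difference between the 8 genes and the markers was made. Macrophage markers were called higher in corrected explants than in livers for 8 of 10 genes, Kupffer cell markers lower for 1 of 5 and liver sinusoidal endothelial markers lower for 3 of 5. The macrophage markers summed to 1099 to 2962 TPM in explants before correction, 515 to 1146 TPM in livers, 771 to 831 TPM in irises, 151 to 282 TPM in hepatocytes and 575 to 756 TPM in spheroids, and none of the 10 was at 0 throughout a group. Markers of iris and anterior eye were called higher in corrected explants for 3 of 7. How far these cells' RNA lowered the TPM of the 8 genes was not tested.

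**Figure D3:**
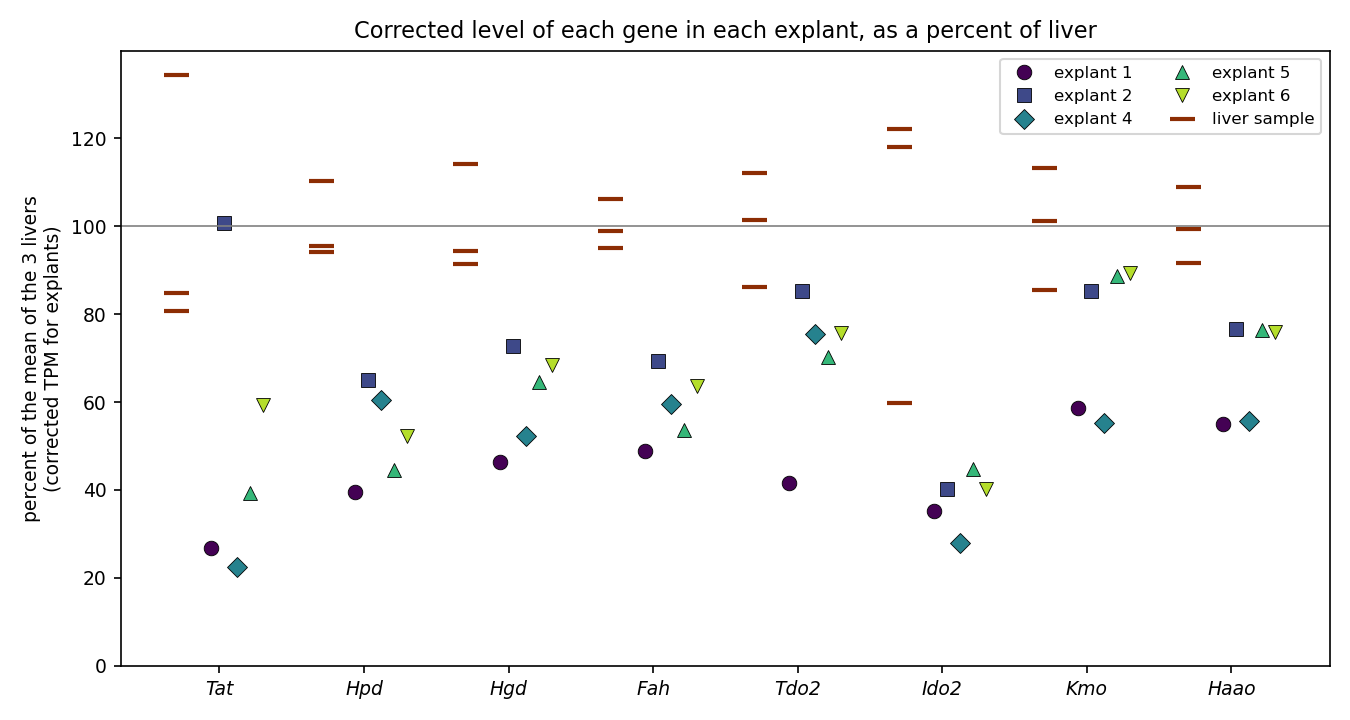
Corrected TPM of each gene in each of the 5 explants (symbols) as a percent of the mean of the 3 livers, with the single livers as brown bars and the liver mean as a grey line at 100%. Explant 2 reached 101% for Tat while explants 1 and 4 stood at 26.9% and 22.5%, and the spread of the other genes was narrower.

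Explants differed from each other most in Tat, whose coefficient of variation (CV) over the 5 corrected explants was 64.1%, with a 4.47-fold range. Among the 338 genes with a mean of at least 100 TPM in both corrected explants and livers and at most 10% of the liver level in irises, the median CV was 19.7%, and Tat stood at the 96.4th percentile. Fah, above that limit in irises, and Ido2, under 100 TPM, are not in this set and were only placed against it. The other 7 genes had a CV of 13.6% (Fah) to 23.9% (Tdo2), between the 24.6th and the 63.3rd percentile. Tat also varied more than the others in livers, where its CV was 29.8%, apart from Ido2 at 34.9%. Explant 1 held the lowest value of 5 of the 8 genes and explant 4 of the other 3, Tat, Ido2 and Kmo. Explant 2 held the highest value of 6 genes, all but Ido2 and Kmo. Summed over the 8 genes, explants 1, 4, 5, 6 and 2 held corrected levels of 2824, 3470, 3781, 4294 and 5144 TPM, against 6233 to 7252 TPM in livers. Explants 1 and 4 had the largest iris shares subtracted (82% and 81%).

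The makeup of the pathway was described by the share of each gene in the summed TPM of the 8. Hpd made up 21.5% ± 0.235 (SD, n = 3) of the sum in livers, 21.96% ± 1.34 in hepatocytes, 19.3% ± 3.24 in corrected explants and 8.14% ± 1.35 in spheroids. Haao made up 17.6% ± 2.79, 20.1% ± 1.24, 20.3% ± 2.56 and 11.5% ± 0.695 in the same order. Tdo2 took 11.96% ± 1.03 in livers and 19.9% ± 1.04 in spheroids, and Tat 18.4% ± 3.76 and 25.2% ± 0.742. Both spheroid samples lay below the range of the livers for Hpd, Haao and Ido2, and above it for Tdo2, Tat, Kmo and, narrowly, Hgd. These shares sum to a fixed total, so that a fall of Hpd and Haao by itself raises the others, and no test was made on them.

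**Figure D4:**
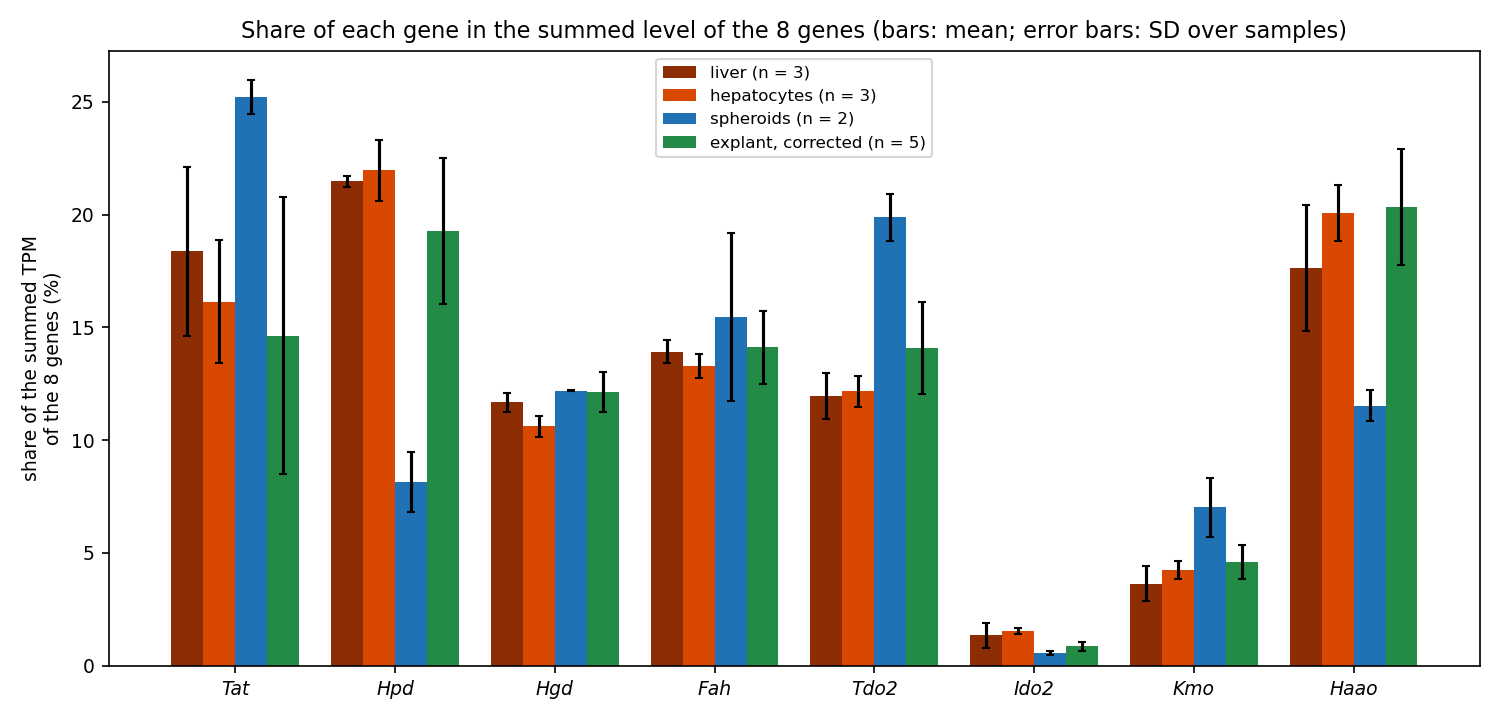
Share of each of the 8 genes in their summed TPM (%), with bars as group means and error bars as SD over 3 livers, 3 hepatocyte preparations, 2 spheroid samples and 5 corrected explants. Hpd and Haao made up 8.14% and 11.5% of the sum in spheroids, and 21.5% and 17.6% in livers.

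Other genes linked to tyrosine breakdown were read beside the 8. Gch1, which starts tetrahydrobiopterin synthesis (-1.42, adjusted p = 0.00551), its regulator Gchfr (-1.91, adjusted p = 0.000525) and Qdpr, which recycles that cofactor (-1.25, adjusted p = 0.00458), were called lower in spheroids than in hepatocytes. Pcbd1, which also recycles it (-0.82, adjusted p = 0.0192), and the aminotransferases Got1 (-0.73, adjusted p = 0.151) and Got2 (-0.68, adjusted p = 0.0459) were not called. Gstz1, the isomerase between Hgd and Fah, held 77.8% of the liver level in spheroids and 74.2% in corrected explants. Against livers it was not called in either, with -0.47 ± 0.23 (adjusted p = 0.153) and -0.44 ± 0.12 (adjusted p = 0.0404), and 8.29% of its exonic bases overlap Pomt2 on the other strand, whose reads cannot be told apart here. In corrected explants Gch1 (-1.85, adjusted p = 0.00309) and Gchfr (-1.13, adjusted p = 0.0177) were called lower than in livers, and Qdpr (-0.90, adjusted p = 0.00613) passed the p but not the limit on fold change.

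Of the other genes of the kynurenine and NAD route, 10 of 11 could be tested, Ido1 being the exception. Called lower in spheroids than in hepatocytes were 4 of 10, with a median of -0.96. They were Afmid, the formamidase that follows Tdo2 (-2.71, adjusted p = 0.000375), the aminotransferases Aadat (-2.11, adjusted p = 0.00772) and Kyat1 (-1.001, adjusted p = 0.0371), and Gcdh, glutaryl-CoA dehydrogenase of the lower route (-1.66, adjusted p = 0.00331). In corrected explants against livers 4 of 10 were called lower, Afmid by -1.92, Aadat by -1.09, Kyat1 by -1.95 and Gcdh by -1.23 on the log2 scale. Kynu, the kynureninase between Kmo and Haao, was called in neither, with 104 ± 19.5 TPM in livers, 91.3 ± 21.2 TPM in spheroids and 83.7 ± 24.2 TPM in corrected explants.

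Among transporters of aromatic amino acids, Slc3a2, the heavy chain of several amino acid exchangers, was called higher in spheroids than in hepatocytes (1.99, adjusted p = 0.000814), and Slc16a10 (-2.13, adjusted p = 0.0106) and Slc43a1 (-3.59, adjusted p = 0.00201) lower, of 6 tested. Inmt, which methylates indole amines, fell from 1058 ± 115 TPM in hepatocytes to 22.6 ± 4.27 TPM in spheroids (-5.88, adjusted p = 3.78e-05).

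As Tat and Tdo2 respond to glucocorticoids and the culture medium held dexamethasone, 5 genes known to be induced by glucocorticoids were read beside them. Fkbp5 (2.41, adjusted p = 0.00155), Sgk1 (2.36, adjusted p = 0.00234) and Zbtb16 (1.90, adjusted p = 0.0116) were called higher in spheroids than in hepatocytes, Per1 and Tsc22d3 were not. Fkbp5 stood at 68.3 ± 1.36 TPM in spheroids, 10.3 ± 4.20 TPM in hepatocytes, 15.7 ± 7.66 TPM in irises, and 11.7 ± 2.36 TPM in explants before and 4.21 ± 3.91 TPM after correction. The part of dexamethasone in the levels of Tat and Tdo2 was not tested.

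To show which other genes shared the pattern of the 8 across livers, hepatocytes and spheroids, the Pearson correlation of log2(TPM + 1) was taken over those 8 samples among 8488 genes with a mean of at least 10 TPM there. With 3 groups of unequal level the values are a description and carry no p. Hpd was closest to Dhtkd1 (r = 0.997), Pon1 and Agmat, Fah to Notum (r = 0.996), Aldh7a1 and Steap3, Ido2 to Masp2 (r = 0.995), Cd302 and Adra1b, and Haao to 5033403H07Rik (r = 0.996), Pecr and Cyp2j5. Hgd was closest to Ces1c (r = 0.980), Ndrg2 and Suox, Kmo to Cbr4 (r = 0.983), Idh1 and Rcbtb2, and Tdo2 to Bbof1 (r = 0.962), Agxt2 and Car14. Tat had the lowest leading value, with Nnmt at r = 0.872, then Ftcd and Cps1. Among the 8 themselves, Hpd, Hgd, Fah and Haao correlated with each other at 0.932 to 0.979, and Ido2 with each of them at 0.849 to 0.976. Kmo correlated with Fah at 0.189 and with Tat at 0.0923.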

How the data were processed

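RNA of 16 samples was sequenced by Smart-seq3 as 48 libraries. The counts deposited by the authors were made with TopHat2 on mm10 (GRCm38), removal of duplicates, and featureCounts 1.4.6-p5 over exons without strand. Duplicates were judged by molecule tag and position, which limits the counts of abundant genes, and an alternative undid a limit of 2 read starts per base. TPM were computed by the authors from counts summed over the 3 libraries of a sample. The authors' corrected table is not plain TPM, since the column of explant 4 follows another formula than the other 4, so the iris shares were solved from the deposited tables and the formula of the methods was applied to all 5 explants, with negative values set to 0.

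Counts were tested with edgeR 4.0.16 in R 4.3.3 (filterByExpr, TMM, quasi-likelihood test) between explants and irises, hepatocytes and livers, spheroids and hepatocytes, and spheroids and livers. Corrected explants were tested with limma 3.58.1 (trend) on log2(TPM + 1) for genes with a mean of at least 1 TPM. Each fit covered all genes and only the 2 groups compared, with adjustment over all genes tested. Alternatives were DESeq2 1.42.0, limma-voom, other scalings, filters and pseudocounts (0.1), technical libraries a alone, 1 fit of all groups, other corrections, and each sample left out. All 8 genes passed every main filter. The genes and lists were chosen with earlier results of these data known. Results of 1 list that need an item not reported here, its counts and median included, were left out. Named are the 8 genes, called genes of the lists, genes needed beside them, and the 3 most alike genes. The tests were checked on simulated counts without an iris share, so the check does not cover the correction of explants. The authors' counts per single library served as input, and their first-library values only as an alternative. Depth per sample is given with the results, and the part of counting error in the spread between samples was not tested. A limit given for 0 counts covers counting error only. Numbers shared across groups were not used to pair the samples in the main fits, and whether they mark a shared donor is not known.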

Additional observations from a re-analysis of the deposited data

Results flagged for a closer look

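Gstz1, the isomerase between Hgd and Fah, stood at 749 TPM in corrected explant 1, apart from the other 4 explants at 911 to 955 TPM. The gap to the nearest explant was 0.784 of the whole range, above the critical value of Dixon's test for 5 samples. Chance alone puts about 1 group in 20 past that value. Only the explants have enough samples for this test, and none of the 8 genes was past it there, before or after correction.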

How the results depend on the processing

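Of the counts of called genes among the 8, those for explants against irises (8) and hepatocytes against livers (0) stayed within 1.5 times under every setting, with 6 to 8 and 0 when 1 sample was left out. For spheroids against hepatocytes (5), library size alone gave 3 and leaving out 1 sample 4 to 7. For spheroids against livers (3), no fold change limit gave 5 and leaving out 1 sample 3 to 5. For corrected explants against livers (1), TPM before correction gave 8, the deposited corrected values 0, undoing the limit on read starts 2, no fold change limit 5, and leaving out 1 sample 0 to 3. Against hepatocytes (2), TPM before correction gave 8, no fold change limit 6, and leaving out 1 sample 2 to 3. Against spheroids (1), TPM before correction gave 5, the deposited corrected values 0, and leaving out 1 sample 0 to 1. Where a limit was dropped or samples removed, the change follows from that, and elsewhere the cause was not tested. Counts over all genes moved by more than 1.5 times as well. Explants against irises called 1085 genes, and 583 with limma-voom, 644 with at least 10 counts in every sample and 1975 with no fold change limit. Hepatocytes against livers called 333, and 20, 165 and 169 with limma-voom, technical libraries a alone and at least 10 counts, and 647, 1140 and 1205 with DESeq2, the single fit and no filter. No fold change limit called 3894 in place of 2492 for spheroids against livers. TPM before correction and the deposited corrected values called 9896 and 1431 in place of 3104 against livers, 11028 and 2234 in place of 3933 against hepatocytes, and 8622 and 488 in place of 1263 against spheroids. With 1 sample left out these counts were 583 to 1259 for explants against irises, 8 to 448 for hepatocytes against livers, 1142 to 4091 for corrected explants against livers, 2064 to 4867 against hepatocytes and 165 to 1455 against spheroids. Beside the shift given with the results, the median of all genes moved to -0.10 with library size alone for hepatocytes against livers and to -0.16 with DESeq2 for spheroids against livers.

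The replicate block, for numbers that groups share in the labels, gave 0 called members in all 3 comparisons of corrected explants, with 0 genes called in all, 8 for explants against irises, 0 for hepatocytes against livers, 5 for spheroids against hepatocytes and 4 for spheroids against livers. In fits with explants or spheroids only numbers 1 and 2 are shared, so samples with other numbers carry no weight in the group difference. The 0 calls for corrected explants therefore cannot show that the calls of the main fits fail. Deviations of same-numbered samples from their group means correlated at -0.108 to 0.193. For spheroids and hepatocytes they were 0.102 and 0.135, and for hepatocytes and livers 0.105, 0.0633 and -0.043. With so few samples per group, these values cannot show whether same-numbered samples share a donor. The main fits therefore left the numbers out.

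Values that changed sign were those of genes that were not called, apart from Hpd. Tat in hepatocytes against livers gave -0.0157 with library size alone and -0.11 to 0.34 with 1 sample left out. Kmo in spheroids against livers gave -0.0434 with at least 10 counts in every sample, -0.0532 with limma-voom, -0.00579 in a single fit of all groups, -0.00307 with technical libraries a alone and -0.64 to 0.45 with 1 sample left out, and Tdo2 there -0.72 to 0.0957. In corrected explants against spheroids, TPM before correction turned Hpd to -0.38, Hgd to -1.73, Ido2 to -1.04 and Haao to -0.87. Fah there was 0.0419 with the iris fraction by median ratio, 0.00678 with the limit on read starts undone and -0.0628 to 0.0631 with 1 sample left out, and Hgd -0.14 to 0.34.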
